A study of Mus musculus with 4 samples.

Results

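Large peritoneal macrophages (LPMs) of the mouse held 13414 distal open chromatin regions that were called in every ATAC-seq library except the library with the fewest peaks. These members were chosen by peak calls: overlapping peaks of the 4 libraries (1 bp or more in common) were joined into regions, and a region was kept if it had a peak in Rxrab fl/fl replicate 1 and in both libraries of LysMCre+ Rxrab fl/fl, and none in Rxrab fl/fl replicate 3. Its midpoint also had to lie in an intron or between genes, more than 1 kb from every RefSeq transcription start site (TSS), and away from exons, UTRs and transcript ends. The merged peaks gave 70744 regions in all, of which 51316 were distal by the same definition, and the members made up 26.1% of the distal ones. The calls are thus the rule and not a finding, Rxrab fl/fl replicate 3 has no value at any member, and the values below are descriptions with no test.

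ATAC-seq marks open DNA through the cuts that the Tn5 transposase makes. The libraries came from LPMs sorted from 9-week-old mice with 40000 cells each, 2 from Rxrab fl/fl mice (replicates 1 and 3), whose floxed Rxra and Rxrb are intact, and 2 from LysMCre+ Rxrab fl/fl mice (replicates 1 and 2, LysMCre+ for short). In the latter the Cre recombinase is driven by the lysozyme M promoter, so that both receptor genes are deleted in myeloid cells as far as Cre acts, and other cells keep them. The labels give library batch 1 for all 4 libraries, and by the study's Reporting Summary any ATAC-seq sample that clustered away from its group was dropped, so the true spread between libraries may be wider.

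The retinoid X receptors RXRα and RXRβ are nuclear receptors that bind DNA mostly as partners of other receptors, such as those for retinoic acid, vitamin D, thyroid hormone, oxysterols and fatty acids, at pairs of short repeats called direct repeats (DR) and numbered by their spacing. LPMs are the resident macrophages of the peritoneal cavity, and their identity depends on the transcription factor GATA6 on top of general macrophage factors such as PU.1 and C/EBP. Distal open regions are typically enhancers, where such factors bind, or insulators, where CTCF binds.

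Short stretches of members show the kinds of sequence that lay under their summits. For each motif the stretch comes from the strongest member that held it within 50 bp of its strongest summit, at most 30 bases are given, 5′ to 3′, and capitals mark the motif.
4933400F21Rik, PU.1 motif: aggcattaaagGAGGAAGTgatgtcactga
Arid3b, C/EBP motif: tagcacttggaTTGCAGAAgtgaaactggc
Fanca, KLF motif: tgtgtcactctGGGGGTGGactctgatgtc
Raver2, GATA motif: ttctgctgacagAGATAAGagggaactgaa
Ahi1, CTCF motif: acacactgaCCACCAGAGGGCaggacgcgt
Chst12, DR1 motif: ggcaaccggAGGTCAAAGGTCAgccacctt
Plekhb1, DR5 motif: cgcagccGGTTCACCTAGAGTTCAccaagc
Each is named by the gene with the nearest TSS, and positions are on mm10. The PU.1 stretch is chr1:89644316-89644345 on the + strand, in an intron and 39.7 kb downstream of the TSS of 4933400F21Rik, a RIKEN gene. The same member was also the strongest with an AP-1 match. The C/EBP stretch is chr9:57854461-57854490 on the - strand, intergenic and 17.7 kb upstream of Arid3b, and the KLF stretch is chr8:123292964-123292993 on the + strand, in an intron 25.6 kb downstream of the TSS of Fanca. The GATA stretch is chr4:101155720-101155749 on the - strand, in an intron 86.5 kb downstream of the TSS of Raver2. The CTCF stretch, chr10:20966288-20966317 on the - strand, lies in an intron 13.7 kb downstream of the TSS of Ahi1. Of the receptor elements, the DR1 stretch is chr5:140514102-140514131 on the - strand, in an intron 8.59 kb downstream of the TSS of Chst12, and the DR5 stretch is chr7:100663389-100663418 on the - strand, intergenic and 1.01 kb upstream of Plekhb1. A match describes letters only and does not show that a factor was bound.

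The libraries differed first in how many peaks they held. Rxrab fl/fl replicate 1 had 38048 peaks and Rxrab fl/fl replicate 3 had 16097. For LysMCre+ Rxrab fl/fl the lists held 65421 peaks for replicate 1 and 55581 for replicate 2. The library that misses the members was thus the weakest of the 4 by number of peaks, and also by the height of those it shared with the others. Height is given on 2 scales, the deposited fold enrichment at the summit over the local background, and the whole-number pileup of tags at the summit, worked out from that ratio and the p value. Over the 6881 distal regions called in all 4 libraries, the median pileup of Rxrab fl/fl was 77 tags in replicate 1 and 17 tags in replicate 3, and that of LysMCre+ Rxrab fl/fl was 83 tags in replicate 1 and 58 tags in replicate 2. In depth, as far as the background shows it, it was close to another library. The lowest background of a library, which stands for its depth in tags per 200 bp, was 1.97 for Rxrab fl/fl replicate 1 and 1.06 for replicate 3, with 1.33 for LysMCre+ Rxrab fl/fl replicate 1 and 1.08 for replicate 2. Rxrab fl/fl replicate 3 and LysMCre+ replicate 2 therefore had nearly the same lowest background with very different numbers of peaks, and what set their peak heights apart was not tested.

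The members were peaks of middle height in the LysMCre+ libraries, set beside the other distal classes below. In Rxrab fl/fl replicate 1 they lay under the medians of all its distal regions, a fold enrichment of 7.25 and a pileup of 30 tags. The members' median fold enrichment was 6.40 in Rxrab fl/fl replicate 1, 10.1 in LysMCre+ replicate 1 and 8.01 in LysMCre+ replicate 2. Their median pileup was 24, 37 and 27 tags in the same order. The members stood below the distal regions called in all 4 libraries, whose median fold enrichment was 13.0, 14.3 and 11.6 in these 3 libraries and 6.59 in Rxrab fl/fl replicate 3. They stood above the 13312 distal regions called in both LysMCre+ libraries only, where it was 6.89 and 5.94. In all 3 libraries 5% of the members were under a fold enrichment of 4.03, 4.73 and 4.20, and 5% were over 12.3, 19.0 and 14.9, so the range was wide. The members were also of middle width, with a median of 435 bp against 557 bp for the regions called in all 4 and 348 bp for those of the LysMCre+ libraries alone. A region spans all its merged peaks, so a class that requires more libraries can be wider for that reason alone.

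**Figure D1:**
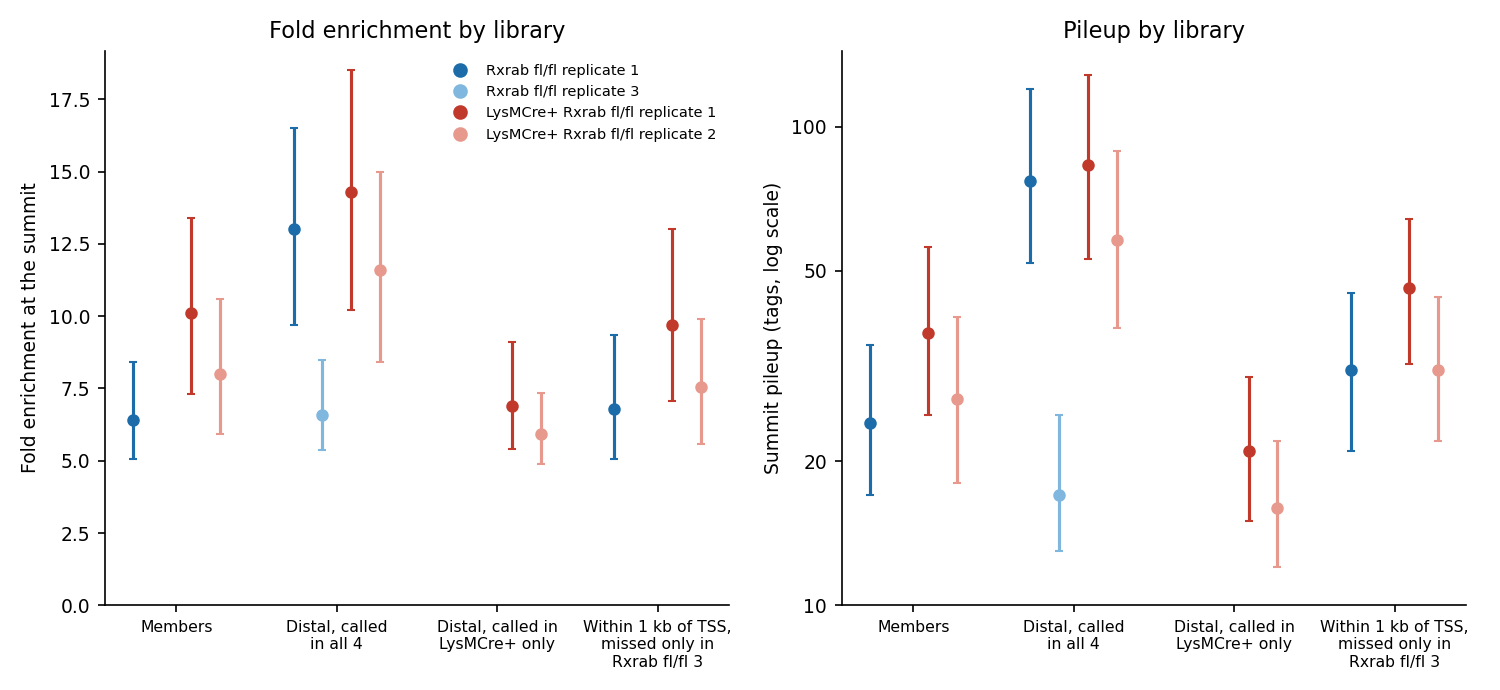
Median fold enrichment (left) and summit pileup in tags (right, log scale) of each library for the members, the distal regions called in all 4 libraries, the distal regions called in both LysMCre+ libraries only, and regions within 1 kb of a TSS missed only in Rxrab fl/fl replicate 3. Points are medians and bars run from the 25th to the 75th percentile over regions; the members' medians of 24 to 37 tags lie under those of the regions called in all 4, at 58 to 83 tags in the same 3 libraries.

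Whether a distal region was called in Rxrab fl/fl replicate 3 went with its height elsewhere. Of the 20295 distal regions called in the other 3 libraries, 6881 (33.9%) were called there too, and the rest are the members. Among the 2030 of them with the lowest pileups in Rxrab fl/fl replicate 1 (9 to 15 tags), 22 (1.08%) were called in replicate 3. At 42 to 54 tags the share was 40.3%, and at 110 to 589 tags it was 98.2%. The same order held by the pileup of the LysMCre+ libraries, but with a flatter slope. In LysMCre+ replicate 1 the share ran from 6.11% at 7 to 20 tags to 87.1% at 126 to 597 tags, and in LysMCre+ replicate 2 from 5.81% to 86.0%. The height in Rxrab fl/fl replicate 1 thus separated members from the regions called in all 4 more sharply than that in either LysMCre+ library. Each ranking rests on 1 library, so genotype and library cannot be told apart here.

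**Figure D2:**
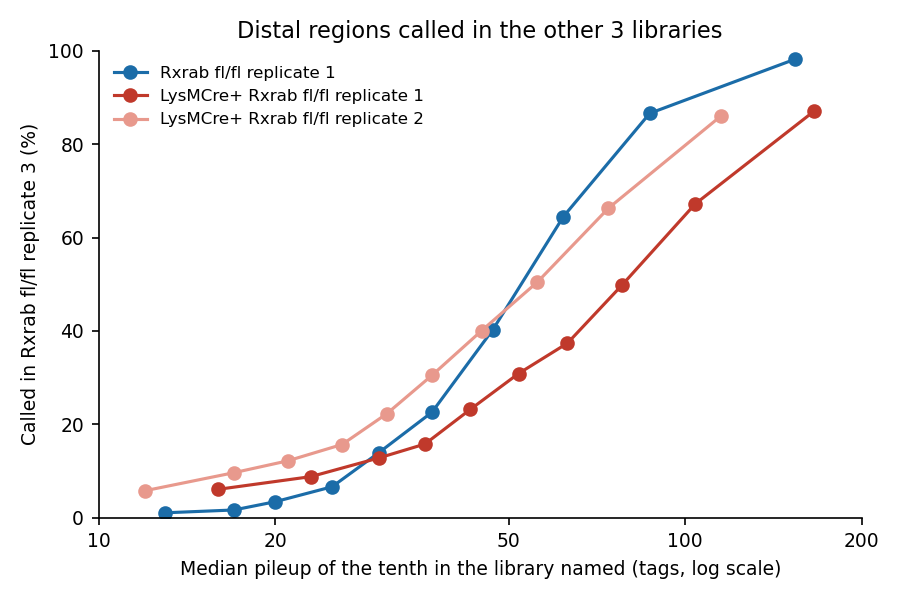
Percentage of distal regions called in Rxrab fl/fl replicate 3, among the 20295 called in the other 3 libraries, against the median pileup (tags, log scale) of 10 equal groups ranked by each library's pileup. Each line is a ranking by 1 library; the line for Rxrab fl/fl replicate 1 runs from 1.08% to 98.2% and is the steepest.

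A scaled height puts the members' pileups on the scale of replicate 3, as a description only. At the distal regions called in all 4, the median ratio of the pileup in Rxrab fl/fl replicate 3 to that in replicate 1 was 0.225 (25th to 75th percentile 0.188 to 0.275). Multiplied by this ratio, the members' median pileup of replicate 1 came to 5.39 tags, and 7568 members (56.4%) came under 6 tags, the smallest pileup that replicate 3 called anywhere. Scaled from LysMCre+ replicates 1 and 2 by their own ratios of 0.220 and 0.312, 4027 (30.0%) and 3906 members (29.1%) came under it. Under 10 tags, the 5th percentile of the pileups that replicate 3 called, the shares were 86.2%, 63.5% and 61.1% in the same order. The ratio comes from regions that replicate 3 did call, which lifts it, so these counts may be too low. The members were chosen for a missing call there, so the counts cannot say why it was missing, which was not tested. At the other end, 230 members (1.71%) had a pileup in Rxrab fl/fl replicate 1 at or above 77 tags, the median of the regions called in all 4. By the same measure 1208 (9.01%) reached 83 tags in LysMCre+ replicate 1 and 1296 (9.66%) reached 58 tags in LysMCre+ replicate 2.

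Members were also ranked within each library, which needs no scale. The 16097 strongest peaks by q value were taken from each library, as many as Rxrab fl/fl replicate 3 has in all. They held 1573 members (11.7%) in Rxrab fl/fl replicate 1, 2845 (21.2%) in LysMCre+ replicate 1 and 3071 (22.9%) in LysMCre+ replicate 2. Most members, 9030 (67.3%), were among the strongest in none of the 3 libraries, and 773 (5.76%) were in all 3.

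The strongest members by mean log2 fold enrichment were far above this middle range. The strongest of all was chr6:126996267-126996782, intergenic and 19.0 kb upstream of Fgf6, a fibroblast growth factor gene. Its fold enrichment was 19.7 in Rxrab fl/fl replicate 1, 25.8 in LysMCre+ replicate 1 and 22.4 in LysMCre+ replicate 2. It held a PU.1 and a RUNX match. The next was the intronic region near 4933400F21Rik that carries the PU.1 sequence printed above, chr1:89643776-89644540, at 22.5, 24.7 and 19.7 in the same order. The third, chr3:52069705-52070416, lies in an intron 34.9 kb downstream of the TSS of Maml3, a coactivator of Notch signalling, and had 19.7, 24.1 and 21.5. The other 3 were near Mir760 (chr3:122301128-122301809), Fanca (chr8:123292783-123293219), a gene of DNA crosslink repair, and Rnf186 (chr4:138943533-138944269). Their fold enrichment in Rxrab fl/fl replicate 1 was 17.8, 16.5 and 17.8. In LysMCre+ replicates 1 and 2 it was 26.0 and 21.1 near Mir760, 26.6 and 21.7 near Fanca, and 25.2 and 20.3 near Rnf186. All 6 were therefore high in each of the 3 libraries, with pileups of 75 to 118 tags in Rxrab fl/fl replicate 1. Of the distal regions at 72 to 110 tags there, 86.6% were called in replicate 3, and of those at 110 to 589 tags, which take in the region near 4933400F21Rik, 98.2%.

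The authors called peaks at a q value of 0.05, and all members had lower q values than that by a margin. The lowest −log10 q of a member was 2.06 in Rxrab fl/fl replicate 1, 1.99 in LysMCre+ replicate 1 and 2.15 in LysMCre+ replicate 2. The member with the lowest value in any library, near Gm39859, had a −log10 q of 8.77, 1.99 and 6.42 in these libraries. The next lowest were regions near Zbtb16, with 2.06 in Rxrab fl/fl replicate 1, and near Dpep1, with 2.07 there. Just outside the rule were regions that replicate 3 barely called. The lowest −log10 q in replicate 3 was 1.36, in an intron 75.7 kb from the nearest TSS, that of Zbtb7c, where its pileup was 6 tags against 42, 45 and 28 in the other 3 libraries.

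By position the members resembled distal regions at large. Of the 13414, 7162 (53.4%, 95% Wilson interval 52.5 to 54.2%, for counting error only) lay in introns and 46.6% between genes, against 53.6% in introns over all distal regions and 51.1% over the distal regions called in all 4. The median distance to the nearest TSS was 20.4 kb. It was 18.9 kb for the regions called in all 4 and 21.0 kb for all distal regions. Between 1 and 5 kb lay 13.5% of the members, 63.7% lay between 5 and 50 kb and 22.8% farther away. Only 30 were over 500 kb from any TSS. On each autosome between 24.1% and 27.7% of the distal regions were members, the lowest share on chromosome 5 and the highest on chromosomes 14 and 17, so no chromosome stood apart (sex chromosomes were left out by the authors). Within 10 kb, a member (other than the region itself) lay near 33.2% of the members, 29.9% of all distal regions and 36.3% of those called in all 4. A distal region called in all 4 lay within 10 kb of 19.9% of the members, against 18% and 29.6%. In base composition the members (median GC 50.7% over 201 bp at the summit) lay between the distal regions called in all 4 (51.2%) and those of the LysMCre+ libraries alone (49.8%). Repeats covered a mean of 10.8% of these windows, against 8.60% and 12.6% in the same order.

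The rule bars promoters, and promoters were also missed by replicate 3. Within 1 kb of a TSS, 3706 regions had the same pattern of calls, and their median fold enrichment, 6.78 in Rxrab fl/fl replicate 1 and 9.70 and 7.56 in LysMCre+ replicates 1 and 2, was close to that of the members. For 64.2% of the members, a region within 1 kb of a TSS of the nearest gene was called in Rxrab fl/fl replicate 1. In replicate 3 it was 46.0%, and in LysMCre+ replicates 1 and 2 it was 71.0% and 68.9%. Over all distal regions the shares were 62.4% for Rxrab fl/fl replicate 1, 44.9% for replicate 3, and 70.0% and 67.5% for the LysMCre+ libraries.

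Recognition letters of macrophage factors were searched next. Each of 18 motifs was searched on both strands within 100 bp of the strongest summit, and a motif at the same distance from the summit of every other region was counted in the same way. PU.1, the master factor of the myeloid lineage (GAGGAAGT), was found at 1703 members (12.7%). It was found at 9.30% of all regions, 11.0% of all distal regions and 11.9% of the distal regions called in all 4. In windows of the same length 1 kb to either side of the members the share was 1.35%, so the members held it 9.38 times as often as their own surroundings. C/EBP (TTGCNNAA) was found at 1988 members (14.8%), against 11.1% of all regions, 12.9% of all distal regions and 7.82% of the windows beside the members. The AP-1 letters TGANTCA, bound by FOS and JUN dimers, were found at 2346 members (17.5%), against 12.7% of all regions, 15.4% of all distal regions and 5.78% beside. Over their own surroundings the members held AP-1 letters 3.03 times and C/EBP letters 1.89 times as often. These 3 motifs were also common in the distal regions called in all 4, where AP-1 reached 22.2% and C/EBP 16.5%.

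Apart from MEIS, other factors of macrophages gave smaller shares. The KLF motif (GGGNGTGG), bound by KLF2 and KLF4, was at 9.41% of the members, 9.09% of all distal regions and 10.4% of all regions, which include promoters. RUNX (TGTGGTT) was at 7.13%, 6.95% and 5.88% in the same order, and the MAF letters TGCTGAC at 6.43%, 6.46% and 5.73%, with 2.90% in the windows beside the members. IRF (GAAANNGAAA), bound by interferon regulatory factors, was at 3.88% of the members and 3.37% of all distal regions. MEIS letters (TGACAG) were the most frequent of all at 18.5% of the members, but being short they were also at 18% of all distal regions and 13.5% of the windows beside. MAF letters can overlap those of AP-1 and MEIS, and 204 members (1.52%) held both MAF and AP-1. Of the remaining motifs, NF-kB, searched by name, was at 3.24% of the members against 3.30% of all distal regions and 3.38% of all regions, and STAT (TTCNNNGAA) at 6.19% against 6.22% and 5.58%. TFE/MITF (TCACGTG) was at 2.38% against 2.02% and 2.44%, EGR (GCGTGGG) at 1.46% against 1.47% and 2.55%, and ATF/CRE (TGACGTCA) at 0.507% against 0.458% and 0.862%. Of the 7 motifs PU.1, C/EBP, AP-1, RUNX, KLF, IRF and MAF, 6098 members (45.5%) held none and 5297 (39.5%) held exactly 1.

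The insulator factor CTCF set the members apart from the distal regions called in all 4. Its letters CCANNAGNNGGC were at 962 members (7.17%), 2.35% of the distal regions called in all 4, 10.6% of those called in the LysMCre+ libraries only, 7.73% of all distal regions, 6.86% of all regions and 1.76% of the windows beside the members. In other words, of the 1124 distal regions with CTCF letters that were called in the other 3 libraries, 162 (14.4%) were called in Rxrab fl/fl replicate 3, against 33.9% without regard to motif. For PU.1 that share was 32.5%, for C/EBP 36.4% and for AP-1 39.5%. Members with CTCF letters were narrower, with a median width of 385 bp, and lay closer to a TSS, at a median of 14.9 kb. In Rxrab fl/fl replicate 1 their median fold enrichment was 5.91, against 6.40 for members without CTCF letters. In LysMCre+ replicates 1 and 2 it was 10.3 and 8.54, against 10.0 and 7.95 without. Both groups were thus lower in Rxrab fl/fl replicate 1 than in the LysMCre+ libraries.

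GATA and receptor elements were rare. The GATA letters AGATAAG, bound by GATA6 in these cells, were at 366 members (2.73%). They were at 2.71% of the windows beside the members, 2.52% of all distal regions, 2.09% of all regions, 3.52% of the distal regions called in all 4 and 1.60% of those called in the LysMCre+ libraries only. Of the receptor elements, which were searched by name with the core allowed to vary, DR1 was at 33 members (0.246%), DR4 at 14 (0.104%) and DR5 at 22 (0.164%). Over all distal regions the shares were 0.173%, 0.121% and 0.177%, over the distal regions called in all 4 they were 0.218%, 0.145% and 0.305%, and over all regions 0.164%, 0.100% and 0.151%. With Rxrab fl/fl replicate 1 left out of the rule, the DR5 share was 0.101%. Counts this small limit what can be said of elements that RXR partners could use.

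**Figure D3:**
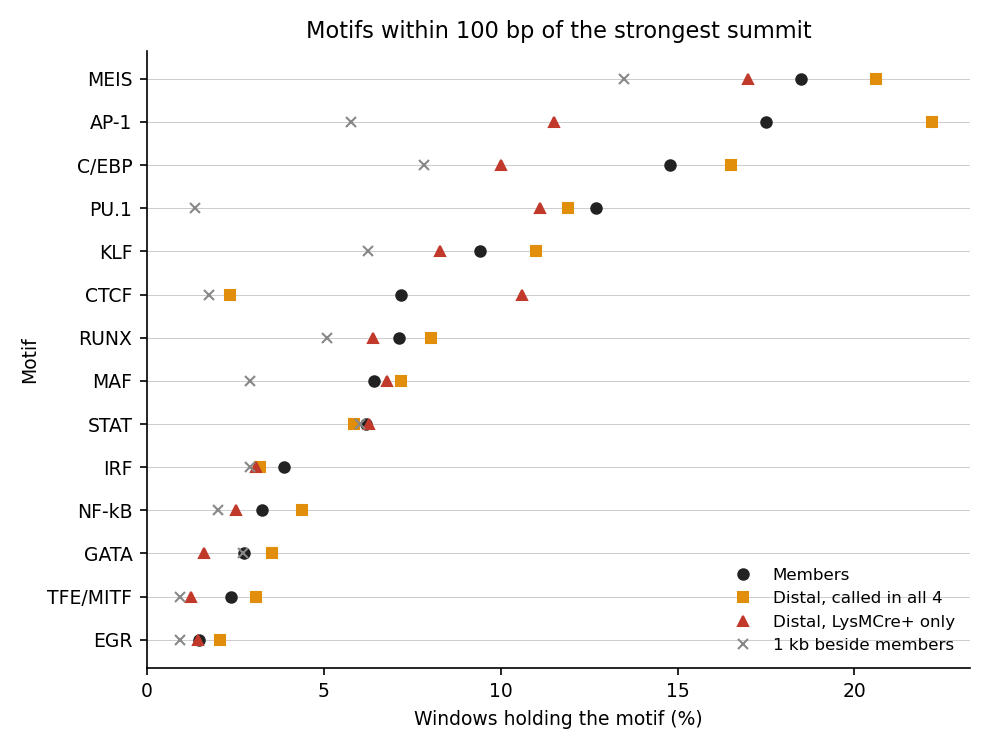
Percentage of windows, 100 bp either side of the strongest summit, that hold each motif: members, distal regions called in all 4 libraries, distal regions called in both LysMCre+ libraries only, and windows 1 kb beside the members. PU.1 is at 12.7% of members and 1.35% of the windows beside, and CTCF is at 7.17% of members and 2.35% of the regions called in all 4.

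Where matches lay within members differed by motif too. Within 30 bp of the strongest summit PU.1 had 0.953 matches per 1000 members and bp, which is 13.5 times its density at 300 to 450 bp. CTCF was 8.97 times as dense at the centre, AP-1 4.23 times, C/EBP 2.33 times and MAF 2.23 times. GATA (0.976) and STAT (0.923) were no denser at the centre than at the edge, and DR5 had a ratio of 3.09 that rests on 68 matches within 500 bp. CTCF matches were also the most centred of the 18 motifs, with a median distance of 25.5 bp from the summit within the window, against 35.5 bp for PU.1.

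**Figure D4:**
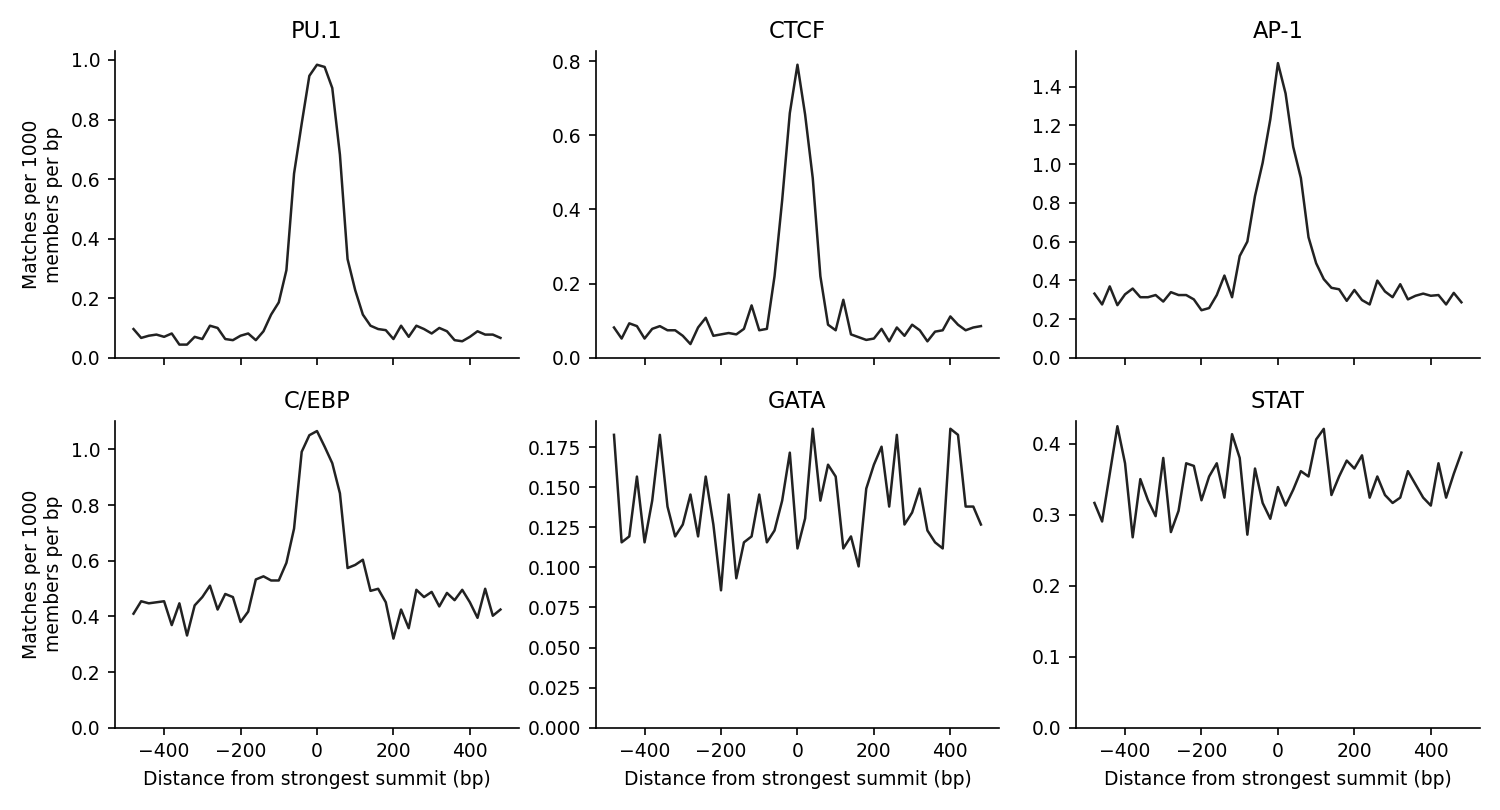
Matches per 1000 members and bp, in bins of 20 bp, against the distance from the strongest summit in bp, for 6 motifs. PU.1, CTCF, AP-1 and C/EBP peak at the summit, with centre-to-edge ratios of 13.5, 8.97, 4.23 and 2.33, and GATA and STAT are flat.

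The genotypes were then compared at the members with the library of Rxrab fl/fl that has values there. Because the rule requires a missing call in the other library of that genotype, the members were chosen to be low in Rxrab fl/fl, and a higher value in LysMCre+ Rxrab fl/fl is partly what the rule asks for. Each library's log2 fold enrichment was set to a median of 0 over the regions called in all 4, and Rxrab fl/fl replicate 1 was subtracted. The median difference over the members was 0.50 in LysMCre+ replicate 1 and 0.53 in LysMCre+ replicate 2, with 0.14 to 0.87 and 0.18 to 0.88 between the 25th and 75th percentiles. Over the distal regions called in all 4 the medians were 0.04 and 0.10, and over all 33263 regions called in the 3 libraries they were 0.19 and 0.23. At a member the difference between the LysMCre+ libraries themselves had an SD of 0.38, so at a given member a difference of the median size is not far above the spread between replicates of a genotype. With the centre set over the regions called in the 3 libraries, the median of the mean difference fell from 0.51 to 0.17. Genotype and the choice of members cannot be told apart in these differences.

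By a 2-fold rule, 1541 members (11.5%) were higher in both LysMCre+ libraries than in Rxrab fl/fl replicate 1, against a background of 5.79% of the 33263 regions called in the 3 libraries. On the same rule 1 member was lower in both, against a background of 0.0511%. With the centre set over the regions called in the 3 libraries, 423 were higher and 38 lower, and without Rxrab fl/fl replicate 3 in the rule and the centre, 434 and 112 of 20295. The rule that picked the members used this contrast, so nothing is read from these counts. On the pileup scale 2536 members were higher, against a background of 11.1%, and 38 were lower, against 1.21%, and 1237 members were higher on both scales. No member was lower by the fold on both scales. For the higher members the median fold enrichment was 5.26 in Rxrab fl/fl replicate 1, 14.2 in LysMCre+ replicate 1 and 11.4 in LysMCre+ replicate 2.

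**Figure D5:**
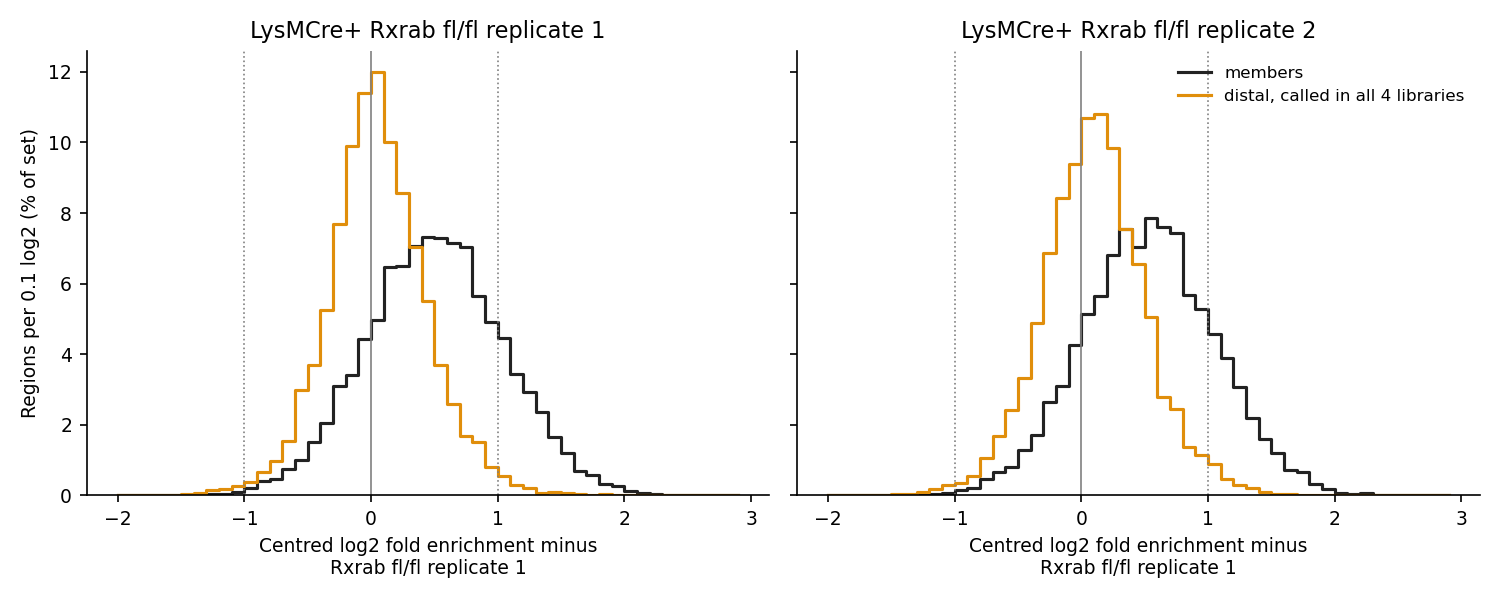
Distribution over regions of centred log2 fold enrichment in LysMCre+ replicate 1 (left) and LysMCre+ replicate 2 (right) minus that in Rxrab fl/fl replicate 1, in bins of 0.1, as a percentage of the members and of the distal regions called in all 4 libraries. Dotted lines mark a 2-fold difference; the members' medians are 0.50 and 0.53 and those of the regions called in all 4 are 0.04 and 0.10.

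The members with the largest differences shared by both LysMCre+ libraries all lay, in Rxrab fl/fl replicate 1, under the members' median of 6.40 for fold enrichment. The largest was an intronic region at chr14:17954056-17954432, 27.4 kb upstream of a TSS of Thrb, the thyroid hormone receptor beta and a binding partner of RXR. Its fold enrichment was 4.04 in Rxrab fl/fl replicate 1, 21.9 in LysMCre+ replicate 1 and 16.1 in LysMCre+ replicate 2, and the centred log2 differences were 2.38 and 2.27. Near Fzd5, a Wnt receptor (chr1:64797189-64797901), the values were 4.04, 19.4 and 16.0. This region held PU.1, AP-1 and MAF letters. Near Celsr1, a cadherin of planar cell polarity (chr15:85963342-85963895), they were 4.36, 20.2 and 18, and near Ece1, the endothelin-converting enzyme (chr4:137890587-137891168), 5.74, 27.1 and 21.0. The last of the 5, near the small RNA gene Snora36b (chr1:185224689-185225049), had 4.38, 21.5 and 16.0. In all 5 both LysMCre+ libraries lay above Rxrab fl/fl replicate 1 with a pileup of 11 to 20 tags in the latter. The smallest pileup called in that library was 8 tags. These 5 were picked by the difference, so low values in Rxrab fl/fl replicate 1 are partly what the choice asks for.

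In the other direction the shared differences in fold enrichment were smaller, and the pileup did not always go with it. The lowest was chr14:63148381-63148914, intronic and 1.70 kb from the TSS of Gm51283, which gave 9.83 in Rxrab fl/fl replicate 1 and 4.29 and 2.94 in LysMCre+ replicates 1 and 2 on that scale. Its pileup was 46, 53 and 63 tags, so on that scale the LysMCre+ libraries were not lower. The same was seen near Mir5129 (chr2:44976441-44976760), with fold enrichments of 10.2, 5.29 and 4.26 and pileups of 39, 41 and 61 tags. Near Itgb8, an integrin subunit that activates TGF-β (chr12:119164164-119164554), both scales were lower, with fold enrichments of 13.8, 7.31 and 5.29 and pileups of 41, 16 and 10 tags. Regions near Fam174a (chr1:95399791-95400180) and Gm43305 (chr14:54300137-54300481) were alike, with fold enrichments of 11.4, 6.02 and 4.81 and of 12.8, 6.88 and 5.29. The regions near Itgb8 and Fam174a held a C/EBP match and that near Gm43305 an AP-1 and a MAF match.

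Differences varied with some of the motifs that a member held and not with others. In LysMCre+ replicates 1 and 2 the medians were 0.51 and 0.50 with KLF letters and 0.50 and 0.51 with MEIS letters. They were 0.50 and 0.52 with STAT letters and 0.54 and 0.54 with MAF letters, close to those of all members. With PU.1 letters the median differences in LysMCre+ replicates 1 and 2 were 0.59 and 0.58, and with CTCF letters 0.67 and 0.73. With C/EBP letters they were 0.35 and 0.44, and with GATA letters 0.15 and 0.30. For the receptor elements they were 0.37 and 0.37 at the 33 members with DR1, 0.04 and −0.09 at the 14 with DR4, and −0.08 and 0.11 at the 22 with DR5. All of these stand beside 0.50 and 0.53 over all members, and those of the receptor elements rest on few members. On the pileup scale, beside 0.54 and 0.68 over all members, they were 0.65 and 0.72 with PU.1, 0.66 and 0.84 with CTCF, 0.33 and 0.51 with C/EBP, and −0.03 and 0.35 with GATA. With DR1 they were 0.33 and 0.48, with DR4 0.01 and 0.01, and with DR5 −0.23 and 0.04, so the sign depended on the scale for GATA in LysMCre+ replicate 1 and for DR4 in LysMCre+ replicate 2. Of the 1188 members below 0 in both LysMCre+ libraries, 6.06% held GATA letters and 22.4% C/EBP letters. Among the members higher by the fold it was 1.49% and 10.1%. For CTCF letters the shares were 3.03% and 10.6%. The members in both groups were picked by the difference itself, so these shares are descriptions. Base composition moved with the differences as well: on the pileup scale the medians were 0.27 and 0.53 in the 3354 members of lowest GC and 0.77 and 0.84 in those of highest GC. On fold enrichment they were 0.38 and 0.50 against 0.57 and 0.56. The part of GC in the motif differences was not tested.

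Members were spread over many genes. In all, 7084 genes (28.4% of 24963 annotated on the autosomes) were the nearest TSS of at least 1 member, 4071 of them of exactly 1, and 419 had 5 or more. The genes with most members were 2010106C02Rik and Cmip with 15 each, 9430078K24Rik and Maf with 14, and Trps1 and Ubash3b with 13. Maf encodes a transcription factor of tissue macrophages, Cmip an adaptor protein and Ubash3b a phosphatase that damps receptor signalling. Members near Maf spanned 381 kb and had a median of 8.14 in Rxrab fl/fl replicate 1 for fold enrichment, 13.9 in LysMCre+ replicate 1 and 10.1 in LysMCre+ replicate 2. Those near Cmip spanned 164 kb, with medians of 5.61, 8.52 and 6.20. Near Trps1, a GATA-type repressor, the medians were close between libraries, at 8.76, 9.46 and 8.82. Gene deserts raise such counts, since the nearest TSS can be far: members assigned to Trps1 lay up to 527 kb away.

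Macrophage lineage factors were the group with most members. Here and for the other groups, 3 values given for a named gene are the fold enrichment of its strongest member in Rxrab fl/fl replicate 1, LysMCre+ replicate 1 and LysMCre+ replicate 2, in this order. At 23 of the 30 genes (76.7%) at least 1 member lay nearest, with 110 members in all, 68 distal regions called in all 4 and 89 called in the LysMCre+ libraries only. This share of genes, like those of the lists that follow, stands beside 28.4% of all genes. Their median fold enrichment was 6.19 in Rxrab fl/fl replicate 1 and 9.40 and 7.46 in LysMCre+ replicates 1 and 2. The median differences were 0.56 and 0.51 on fold enrichment, against 0.50 and 0.53 over all members, and 0.71 and 0.97 on the pileup scale, against 0.54 and 0.68. The strongest were near Maf, with 11.9, 22.1 and 18.2, and near Klf4, a zinc finger factor of monocytes and macrophages, with 12.8, 20.6 and 16.6 at a distance of 538 kb. Next were Klf6, at 13.4, 23.0 and 12.2, and Fos, a subunit of AP-1, at 12.8, 16.8 and 16.3. Maf, Klf4 and Runx1 had 14, 12 and 11 members.

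Genes that mark LPMs formed the next group. Of 23 such genes 20 (87.0%) had a member, 50 members in all, with fold enrichment at a median of 6.69 in Rxrab fl/fl replicate 1 and 7.33 and 6.47 in LysMCre+ replicates 1 and 2. The median differences were 0.19 and 0.32, and on the pileup scale −0.23 and 0.18, so the direction depended on the scale and the library. The list holds Gata6, Naip1, Thbs1 and Serpinb2, which the paper names as loci less accessible in RXR-deficient LPMs. Its direction was therefore partly known when the list was chosen, and the values below are descriptions. Of the 50 members, 10 (20%) were below 0 in both LysMCre+ libraries, against 8.86% of all members. Above 0 in both were 34 (68.0%), against 76.0% of all members. Among the other larger lists the share below 0 in both ran from 2.63% (cell cycle and survival) to 12.2% (lipid and cholesterol handling). Of the distal regions of these genes, 39 were called in all 4 and 8 in the LysMCre+ libraries alone, beside 6881 and 13312 over all genes. The strongest member was near Ltbp1, a binding protein of latent TGF-β, at 13.2, 18.6 and 12.0, followed by Cd9, a tetraspanin, at 13.2, 16.5 and 12.9. Near Cxcl13, a chemokine for B cells, the values were 11.4, 14.6 and 15.3. Near Garnl3 they were 11.9, 10.7 and 10.5, with pileups of 92, 35 and 41 tags, and that region held GATA letters.

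Genes of small peritoneal and monocyte-derived macrophages, the other macrophages of the cavity, had 20 members at 11 of 19 genes (57.9%). Here the median fold enrichment was 5.37, 9.06 and 8.23, and the median differences of 0.65 and 0.79 were above those of all members. The list holds Fcrls, Cd209d, Retnla, Mrc1 and Ccr2, which the paper names as loci more accessible in RXR-deficient LPMs. Its direction was thus also partly known when it was chosen. The strongest member was near Dpp4, a cell surface peptidase, at 6.40, 22.1 and 19.9. Near Irf4, a factor of dendritic cells and alternatively activated macrophages, the values were 10.5, 13.3 and 12.0. The genes of MHC class II presentation Cd74 and Ciita had 6.44, 14.5 and 11.2 and 7.71, 11.0 and 11.2. Both held PU.1 letters.

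Markers of other cells were short lists, to be read beside the 28.4% of all genes with a member. Of the B cell markers 1 of 8 had members (Bank1, 2 members), of the T cell markers 3 of 7 (42.9%), of the granulocyte markers 1 of 6 and of the dendritic cell markers 1 of 3 (33.3%). The mast cell (5 genes) and mesothelial (4 genes) markers had none. The stronger Bank1 member was among the strong ones, at 20, 20.6 and 17.3, and alike in the 3 libraries, with centred differences of −0.02 and 0.07. Over both Bank1 members the medians were 12.4, 14.2 and 11.6, so the other was weaker. The median differences over both were 0.32 and 0.32. Near the T cell genes Tcf7 and Bcl11b the values were 4.71, 11.2 and 10.7 and 8.73, 10.2 and 5.29. At the Themis member, in an intron 148 kb upstream of the Themis TSS, they were 5.39, 11.2 and 8.18. Near S100a9, a calcium-binding protein of granulocytes, they were 7.75, 19.1 and 13.4, and near Xcr1, a chemokine receptor of dendritic cells, 10.2, 12.6 and 7.70. The LysMCre+ libraries were thus both higher near Tcf7, Themis and S100a9, while near Bcl11b and Xcr1 LysMCre+ replicate 2 was lower than Rxrab fl/fl replicate 1, with centred differences of −0.45 and −0.13. On the pileup scale both LysMCre+ libraries were lower there, with −0.39 and −1.10 near Bcl11b and −0.16 and −0.64 near Xcr1, so the direction in LysMCre+ replicate 1 depended on the scale. Over regions of every kind, the markers Pax5, Cpa3, Wt1 and Flt3 were the nearest TSS of none in any library. Ebf1, a B cell factor, was nearest to 3 regions, and its start was called in Rxrab fl/fl replicate 1 and both LysMCre+ libraries. Cd3e, Mpo and Msln were nearest to 1, 1 and 2 regions, none of them called in either Rxrab fl/fl library. Other markers of the same lists did have distal regions called in all 4, with 2 for Siglecf (granulocytes), 1 for Upk3b (mesothelium) and 1 for Bank1 (B cells). In Rxrab fl/fl replicate 3 the starts of Bank1 and of Zbtb46 (dendritic cells) were called. In the study's gating, LPMs are leukocytes without B220, with CD11b and CD115, high in ADGRE1 and low in MHC class II. The part of other cells in the members was not tested. For the LPM label itself, starts of Gata6, Spi1, Adgre1 and Timd4 were called in all 4 libraries, and that of Csf1r in the LysMCre+ libraries only.

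The targeted genes and their partners came next. Rxrb had no member. Rxra had 8, 5 distal regions called in all 4 and 6 called in the LysMCre+ libraries only. Its strongest member, an intronic region at chr2:27699536-27700043, reached 10.0 in Rxrab fl/fl replicate 1 on fold enrichment, 11.4 in LysMCre+ replicate 1 and 8.26 in LysMCre+ replicate 2. Its pileup was 66, 179 and 129 tags. The scales parted because the local background rose as well: over the 8 members its median was 4.76 in Rxrab fl/fl replicate 1 and 14.6 and 15.0 in LysMCre+ replicates 1 and 2, as tags per 200 bp, against 2.49, 2.46 and 2.16 over all members. By the change in background over all regions called in the 3 libraries, Rxra ranked 8 of 3989 genes with at least 3 such regions, with log2 ratios of 1.30 and 1.22 against −0.07 and −0.36 over all regions. Above it stood Malat1, Mir3075, Tns1, Gm45915, Dnajb13, Tpcn1 and Nfatc2. Members lie outside exons by the rule, so they do not check the deletion itself.

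Retinoid receptors, their partners and retinoic acid enzymes had 60 members at 18 of 32 genes (56.2%). The median fold enrichment was 5.39 in Rxrab fl/fl replicate 1 and 7.94 and 6.36 in LysMCre+ replicates 1 and 2, with median differences of 0.34 and 0.28. On the pileup scale these were 0.63 and 0.76, against 0.54 and 0.68 over all members, so the list lay below all members on fold enrichment and above them on the pileup. Rxra is in this list with its 8 members, at which the scales parted as given above. The list was not summarised without Rxra. Near Vdr, the vitamin D receptor, the values were 5.39, 22.0 and 15.7, among the wider gaps of the group. Near Rxrg, the receptor that was not targeted, they were 11.2, 15.5 and 9.84, and near Cyp26b1, which breaks down retinoic acid, 10.8, 14.1 and 9.60. After centring, the fold enrichment of both LysMCre+ libraries lay above Rxrab fl/fl replicate 1 at these 2, by 0.41 and 0.08 near Rxrg and by 0.32 and 0.10 near Cyp26b1. On the pileup scale the differences were 0.94 and −0.07 near Rxrg and 0.38 and 0.30 near Cyp26b1. The direction near Rxrg in LysMCre+ replicate 2 thus depended on the scale.

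Genes of lipid and cholesterol handling, many of them known targets of RXR partners, had 41 members at 22 of 26 genes (84.6%), with median differences of 0.19 and 0.54. The fatty acid binding protein gene Fabp5 had 7.41, 25.4 and 16.0, the scavenger receptor gene Msr1 10.4, 16.9 and 14.5, and the acyltransferase gene Soat1 10.4, 19.5 and 11.4. Near Plin2, which coats lipid droplets, the values were 13.3, 13.4 and 12.6, with pileups of 91, 63 and 59 tags. Lysosome and autophagy genes had 34 members at 13 of 26 genes (50.0%), with median differences of 0.30 and 0.52. The strongest were near Snx13, at 13.8, 19.4 and 14.5, and Ctsc, a lysosomal protease, at 11.4, 18 and 16.7. The Ctsc member was the only named member of a list that held a DR5 element. It lay far from that gene, in an intron 224 kb upstream of the Ctsc TSS. Near Atg7, an enzyme of autophagosome formation, the values were 7.39, 20.9 and 15.3. Near Atp6v1c1 they were 13.6, 14.8 and 9.02, with centred differences of 0.06 and −0.32. On the pileup scale the differences near Atp6v1c1 were 0.46 and 0.24, so the direction in LysMCre+ replicate 2 depended on the scale.

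Genes for the uptake of apoptotic cells had 37 members at 14 of 21 genes (66.7%), with median differences of 0.41 and 0.63. Elmo1, a part of the engulfment machinery, had 12 members, the strongest at 14.2, 15.9 and 12.5. Near Itgav, an integrin subunit that binds dying cells, the values were 6.40, 20.4 and 15.8. Near Scarb1 they were 7.99, 18.6 and 10.2 and near Dock1 7.14, 13.4 and 14.4, so both LysMCre+ libraries were above Rxrab fl/fl replicate 1 at these 3. Cell cycle and survival genes had 38 members at 13 of 24 genes (54.2%), with median differences of 0.61 and 0.72. The strongest was near Mki67, a marker of dividing cells, at 12.4, 20.1 and 17.7, and the cyclin gene Ccnd1 had 7.96, 19.9 and 16.5. The S phase factor E2f2 had 9.69, 20.4 and 14.6, and Capn2, a calcium-dependent protease, 14.4, 16.5 and 14.6. Of these 38 members 1 (2.63%) was below 0 in both LysMCre+ libraries, against 8.86% of all members.

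Genes of pattern recognition and inflammatory signalling had 42 members at 21 of 26 genes (80.8%), with median differences of 0.61 and 0.50. The signalling inhibitor gene Socs3 had 13.9, 21.9 and 16.3, and Tnfaip3, which restrains NF-kB, 14.6, 17.4 and 14.5. Near Myd88, the adaptor of most Toll-like receptors, the values were 10.0, 17.9 and 15.6, and near Tlr5, the flagellin receptor, 8.28, 20.5 and 15.6. Of the distal regions of this list that were called in the other 3 libraries, 48.8% were called in Rxrab fl/fl replicate 3 as well, against 33.9% over all genes. The share was 46.1% for lipid handling, 44.3% for lysosome and autophagy, 43.8% for LPM genes and 42.9% for the retinoid list, and it was lowest among the 9 larger lists for small peritoneal and monocyte-derived macrophages at 25.9%. The lists differ in the number and height of their regions, so such shares describe them and do not rank them. On the pileup scale the median differences of this list were 0.54 and 0.62. Those of the lists given so far on fold enrichment alone were 0.70 and 0.84 for small peritoneal and monocyte-derived macrophages, 0.16 and 0.58 for lipid handling, 0.48 and 0.78 for lysosome and autophagy, 0.56 and 0.83 for uptake of apoptotic cells, and 0.70 and 0.85 for cell cycle and survival.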

How the data were processed

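Per the labels and the study's methods, the authors used cutadapt for adaptors and Bowtie2 for alignment of read pairs to mm10. Duplicates, poorly mapped reads and those on chromosomes M, X and Y were dropped, and MACS2 2.1.1 was run on each library by itself (extension 200 bp, q value 0.05). The MACS2 shift is given as 100 bp without a sign and no other Tn5 offset is stated. PU.1 and CTCF letters were densest at the summits, with no displacement of that size. The deposited fold enrichment is a ratio at the summit to the local background, and the deposited −log10 values are those of the p and q value of each peak. The deposited integer scores and offsets served only to place summits or were not used.

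Peaks were merged and placed by midpoint on 43783 RefSeq NM and NR transcripts of mm10. The pileup was worked out from the ratio and the p value with a pseudocount of 1. A region with several peaks of a library took the strongest. Depth is known only from the lowest background, and intervals on shares cover counting error only. The members and lists were chosen with earlier results of these data known. Named are the 6 strongest members, the 5 with the largest shared difference in each direction, the 6 genes with most members, up to 4 genes per list by mean log2 fold enrichment, Rxra, Rxrb and members near the threshold; counts of members for other genes (Runx1) were added after their values were seen. No test was run. Alternatives were other q values, merges, annotations, centres, scales, windows and left-out libraries. Python 3.11.15, numpy 2.4.6, pandas 2.3.3, scipy 1.17.1 and pysam 0.24.0 were used.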

Additional observations from a re-analysis of the deposited data

How the results depend on the processing

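The number of members stayed within 1.5 times 13414 with a q value of 0.01, peaks reduced to summits, a 50 bp merge, placement by summit, other TSS sets and a 5 kb limit, and ran from 13830 to 26740 with each library left out in turn (26740 without Rxrab fl/fl replicate 1, 20295 without Rxrab fl/fl replicate 3). With an equal number of peaks per library, an alternative chosen after seeing the data, 773 were left, with 57.4% in introns, 14.2% with PU.1 letters, a median difference of 0.38, 3 members higher and 0 lower. The share in introns was 52.2% at a 5 kb limit and 50.4% with NM transcripts alone. PU.1 letters were at 8.42% within 50 bp, by construction of a shorter window, and at 11.9 to 12.5% with a library left out. The median difference of 0.51 was 0.17 centred over the regions called in the 3 libraries, 0.40 without centring, 0.60 on the pileup, and 0.00 to 0.52 with a library left out. Members higher by the fold were then 423, 872 and 2536, and 4478 at a fold of 1.5; members lower were 38, 4 and 38, and 65. With a library left out they ran from 434 to 2515 and from 18 to 112, where leaving out a LysMCre+ library leaves 1 library to pass. Without Rxrab fl/fl replicate 3, which gave the 0.00, the 434 and the 112, the centre also moves to the regions called in the 3 libraries, so the left-out library and the moved centre cannot be told apart. Without Rxrab fl/fl replicate 1 no difference could be formed. Of 170 alternative shares of the other motifs, 122 stayed inside the 95% interval. No paired analysis was possible because the groups share only replicate number 1 and no test was run.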
